A study of Arabidopsis thaliana with 12 samples.

Results

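Signals of 5 kinase and TIR-NBS genes were described over untreated and treated Arabidopsis thaliana seedlings. AT1G35710, AT5G59670 and AT3G46370 are listed as leucine-rich repeat kinase genes, AT5G11410 as a protein kinase gene and AT3G04210 as a TIR-NBS gene. That each of the 5 acts in immunity is not shown by the sources used here. Each was measured by 1 probe set that the array's gene table paired with no other gene, so they are 5 of 13286 genes measured in this way and 5 of 22746 probe sets tested. The genes were picked with earlier results of the same 12 arrays in view, without a record of which comparisons decided it, so every level and difference of theirs is given as a description with no test. The class of each gene is taken as listed, since the reference table used here names them by locus only. AT1G35710 lies on chromosome 1, AT3G46370 and AT3G04210 on chromosome 3, and AT5G59670 and AT5G11410 on chromosome 5. In that table no annotated gene overlaps any of the 5.

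Leucine-rich repeat receptor kinases span the plasma membrane, where the repeats outside the cell bind ligands such as microbial peptides or the plant's own damage peptides, and the kinase domain inside passes the signal on. Kinases without an outer domain often act just behind such receptors. TIR-NBS proteins belong to the intracellular immune receptors: the TIR domain starts a signal that runs through the EDS1 family of proteins, and the TIR-NBS form lacks the leucine-rich repeats of full-length receptors. Many genes of these classes are known to be raised when salicylic acid signalling is switched on.

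Whole wild-type seedlings grown on MS plates made up 4 groups of 3 biological replicates: CK with no treatment, INA with 10 µM INA, a chemical inducer of plant immunity, BLM with 4 µg/ml BLM, a DNA-damaging agent, and BLM+INA with both agents at those doses. All groups are of the same WT genotype, and the length of treatment and age of the seedlings are not given in the sources used here. The question in the series title is whether the agents act together on defence genes. Because whole seedlings were used, fewer cells of a type and less RNA per cell cannot be told apart.

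Values are log2 signals from which each probe set's median of the 12 arrays was taken off, so that 0 is that median, and genes cannot be ranked by level. Array medians lay between -0.02 and 0.03. The actin control's 3′ minus 5′ signal, a sign of RNA quality, was -0.21 ± 0.24 (SD, n = 3) in BLM and 0.07 ± 0.06 in BLM+INA, without overlap, while the GAPDH control's values of these groups did overlap. Differences below are log2 values ± SE from 1 limma fit over all 12 arrays, with 3 arrays a group.

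The 5 genes showed 3 patterns. AT1G35710, AT5G59670 and AT3G04210 were high in every array that had received INA and highest with both agents. AT5G11410 was high in every array that had received BLM, with or without INA. AT3G46370 was highest in untreated seedlings, lower with either agent and lowest with both.

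**Figure D1:**
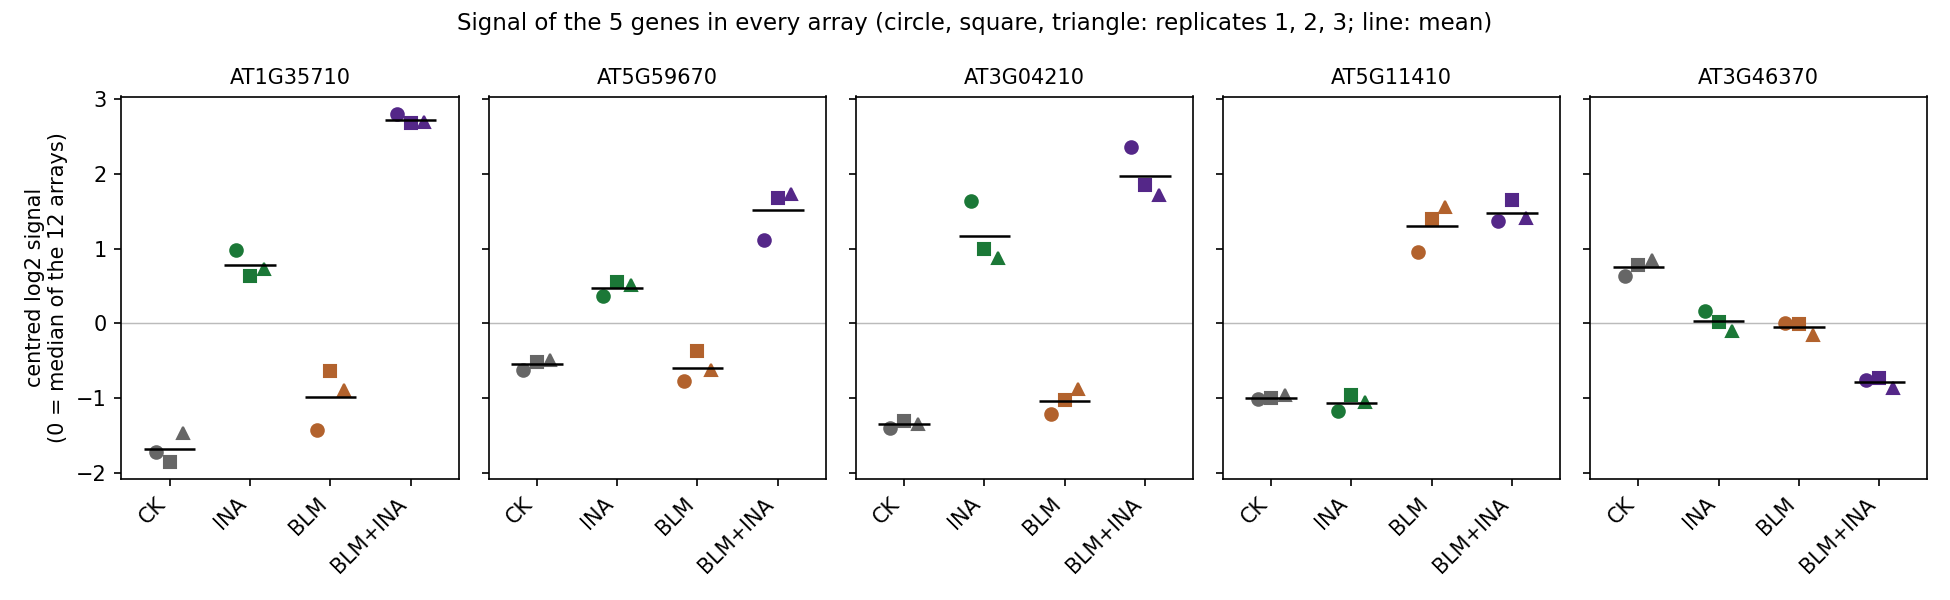
Centred log2 signal (vertical axis, 0 is the median of the 12 arrays) of the 5 genes in the CK, INA, BLM and BLM+INA arrays; circles, squares and triangles are replicates 1, 2 and 3 and the lines are group means. For AT1G35710 the 3 BLM+INA arrays sit between 2.67 and 2.80 and the 3 control arrays between -1.85 and -1.46; AT5G11410 splits by BLM and AT3G46370 steps down from control to BLM+INA.

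AT1G35710 had the widest range of the 5. Its values were -1.71, -1.85 and -1.46 in CK, 0.98, 0.63 and 0.72 in INA, -1.43, -0.63 and -0.89 in BLM and 2.80, 2.67 and 2.69 with both agents, in the order of replicates 1 to 3. No pair of groups overlapped, and the order from low to high was CK, BLM, INA, BLM+INA. The step from CK to BLM was narrow, because the highest control array and the lowest BLM array were 0.03 apart, less than the range within either group. INA stood 2.45 ± 0.16 above CK, which is 5.47-fold, and BLM stood 0.69 ± 0.16 above it. With both agents the gene stood 4.39 ± 0.16 above CK, or 21.0-fold. INA thus made a difference of 3.70 ± 0.16 in seedlings that also received BLM. BLM made a difference of 1.94 ± 0.16 in seedlings that also received INA, with a gap of 1.69 between the groups. The BLM group was the most scattered of the 4 for this gene, with an SD of 0.41 against 0.07 in BLM+INA.

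AT5G59670 was high with INA, while its BLM arrays overlapped the control arrays. Its values were -0.62, -0.52 and -0.49 in CK, 0.37, 0.55 and 0.52 in INA, -0.77, -0.37 and -0.63 in BLM and 1.12, 1.68 and 1.73 with both agents. CK and BLM overlapped, and the other groups were separate. INA stood 1.02 ± 0.14 above CK (2.03-fold), while BLM stood at -0.05 ± 0.14, between -0.16 and 0.04 without 1 array. Both agents together stood 2.05 ± 0.14 above CK, which is 4.15-fold. BLM+INA exceeded INA by 1.03 ± 0.14, so that BLM went with a higher signal when INA was present. Replicate 1 was the lowest of the BLM+INA arrays at 1.12, and without it BLM+INA stood 2.25 above CK.

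AT3G04210, the TIR-NBS gene, was separated mainly by INA, with small steps for BLM. Its values were -1.40, -1.30 and -1.34 in CK, 1.63, 0.99 and 0.87 in INA, -1.21, -1.03 and -0.87 in BLM and 2.35, 1.85 and 1.71 with both agents. No groups overlapped, but CK and BLM were 0.09 apart at their nearest arrays and INA and BLM+INA 0.08. INA stood 2.51 ± 0.18 above CK (5.71-fold), BLM 0.31 ± 0.18 and both agents 3.32 ± 0.18, or 9.97-fold. Adding BLM to INA made a difference of 0.80 ± 0.18, and adding INA to BLM one of 3.01 ± 0.18. Replicate 1 was the highest array of the INA and of the BLM+INA group. Without INA replicate 1 the gene stood 2.28 above CK in INA and BLM+INA exceeded INA by 1.04, and without BLM+INA replicate 1 that excess was 0.61.

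AT5G11410 was separated by the other agent. Its values were -1.01, -0.996 and -0.96 in CK, -1.17, -0.95 and -1.05 in INA, 0.95, 1.39 and 1.56 in BLM and 1.37, 1.65 and 1.40 with both agents. The arrays formed a low set of CK and INA and a high set of BLM and BLM+INA, with overlap inside each set and a gap of 1.91 between the lowest BLM array and the highest control array. BLM stood 2.29 ± 0.13 above CK, which is 4.89-fold, and both agents 2.46 ± 0.13 (5.51-fold). INA alone stood at -0.07 ± 0.13. INA on top of BLM stood at 0.17 ± 0.13, a value that came to 0.000203 without BLM replicate 1.

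AT3G46370 ran the other way. Its values were 0.64, 0.77 and 0.84 in CK, 0.17, 0.02 and -0.09 in INA, 0.01, -0.01 and -0.15 in BLM and -0.75, -0.73 and -0.86 with both agents. Control arrays lay above all others and BLM+INA arrays below all others, while INA and BLM overlapped. Against CK the gene stood at -0.72 ± 0.10 with INA, at -0.80 ± 0.10 with BLM and at -1.53 ± 0.10 with both, so that its signal with both was 0.345 of the control's. INA on top of BLM stood at -0.73 ± 0.10 and BLM on top of INA at -0.81 ± 0.10, close to what each agent gave alone.

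Between control and INA, 4 of the 5 genes had arrays that did not overlap, 3 of them higher and 1 lower with INA; 12.6% of all tested probe sets were separate in that comparison. Between control and BLM 4 were separate, against 32.8% of all probe sets. Between control and BLM+INA all 5 were separate, against 37.6%. Against BLM, BLM+INA arrays were separate for 4 genes, against 20.7%, and against INA for 5, against 33.7%. By pattern, all INA and BLM+INA arrays lay above all CK and BLM arrays for 1.08% of probe sets, as they did for AT1G35710, AT5G59670 and AT3G04210. All BLM and BLM+INA arrays lay above all CK and INA arrays for 6.08%, as for AT5G11410. Arrays of each agent below control and of both agents below each, as for AT3G46370, were seen in 85 probe sets, or 0.374%. The genes were chosen from these arrays, so nothing is read from their counts.

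The difference with both agents was then set against the sum of the differences with each, which on the log2 scale is the product of the fold changes. AT1G35710 stood 1.25 ± 0.23 above the sum, at 21.0-fold where the product of the single folds was 8.82. AT5G59670 stood 1.08 ± 0.20 above it, at 4.15-fold where the product was 1.96. AT3G04210 stood 0.50 ± 0.25 above it, at 9.97-fold against 7.07, and this excess was 0.31 without BLM+INA replicate 1 and 0.73 without INA replicate 1. AT5G11410 stood at 0.24 ± 0.19, or 0.068 without BLM replicate 1, and AT3G46370 at -0.01 ± 0.14, with either sign in fits without 1 array (-0.07 to 0.06). Across all probe sets this interaction passed an adjusted p of 0.05 in limma for 0.382%, 69 above the sum and 18 below it. That count of 87 was 45 after quantile normalization and 2 without moderated variances.

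**Figure D2:**
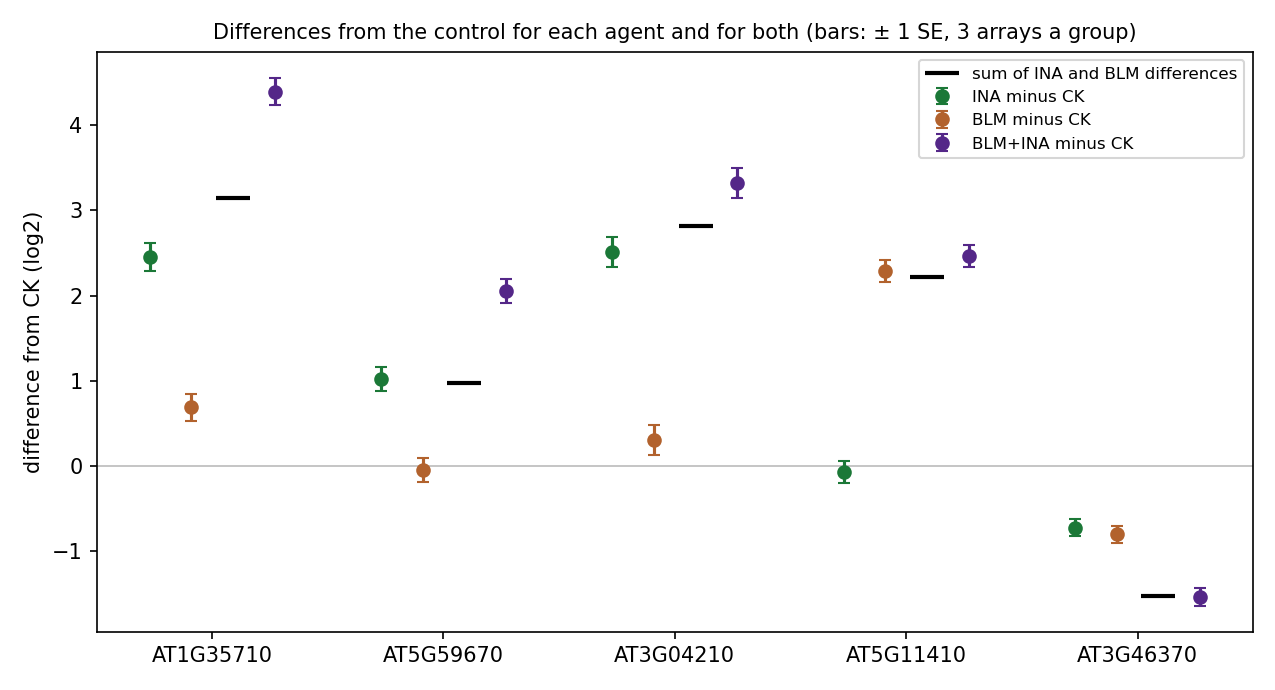
Difference from the control in log2 units for INA, BLM and BLM+INA (points, ± 1 SE, 3 arrays a group) and the sum of the INA and BLM differences (black dash) for the 5 genes. The BLM+INA point of AT1G35710 (4.39) and of AT5G59670 (2.05) lies above the dash (3.14 and 0.97), and that of AT3G46370 (-1.53) on it (-1.52).

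With each array centred on its median this excess changed little, at 1.27 for AT1G35710, 1.09 for AT5G59670 and 0.51 for AT3G04210. It took other values under quantile normalization and on the linear scale. Quantile normalization of centred values forces the same spread on every array, so it can by construction shrink or turn large differences. From its values alone a dependence on scaling cannot be read. When the centred values were quantile-normalized, a step that gives every array the same extremes, the excess of AT1G35710 came to 0.38 and that of AT5G59670 to 0.50, AT3G04210 stood at -0.32 and AT5G11410 at -0.28. BLM+INA then stood above INA by 0.85 for AT1G35710 and 0.46 for AT5G59670, and at -0.10 for AT3G04210, while BLM+INA minus BLM turned to -0.64 for AT5G11410. Taken on the linear scale, relative to each probe set's median signal, the excess of BLM+INA was 4.66 ± 0.24 for AT1G35710, 1.52 ± 0.38 for AT5G59670, 1.59 ± 0.69 for AT3G04210, 0.31 ± 0.34 for AT5G11410 and 0.28 ± 0.10 for AT3G46370, whose sign on this scale is thus positive. Where both agents shift a gene the same way and their folds multiply, the linear excess is positive by construction. Nothing is therefore read from that sign.

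Levels were removed by the centring, but the spacing of the stored numbers still shows some arrays that must have lain below 4 on the authors' log2 scale. Arrays not shown in this way may have lain below 4 too, so the counts and the share given here are minimums. For AT1G35710, AT5G59670, AT5G11410 and AT3G04210 all 3 control arrays lay below 4, as they did for 17.9% of all tested probe sets. For AT3G46370 only 1 array, in BLM+INA, was shown to lie below 4. The 4 genes that were higher with treatment were thus all below this level in untreated seedlings. Some of their treated arrays were also below 4. Those shown to be so were 3 BLM arrays and 1 INA array for AT5G59670, and 2 INA arrays for AT5G11410. For AT3G04210 they were 2 BLM arrays and for AT1G35710 1 BLM array. The BLM difference of AT5G59670, and its departure from the sum, thus rest on CK and BLM arrays that were all below 4. The departures of AT1G35710, AT3G04210 and AT5G11410 likewise rest on 3 CK arrays below 4, and on some BLM or INA arrays below it. The scatter within groups, pooled over the 4 groups, was 0.28 for AT3G04210, 0.25 for AT1G35710, 0.21 for AT5G59670, 0.18 for AT5G11410 and 0.10 for AT3G46370, beside a median of 0.14 over all probe sets.

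The 3 genes nearest in gene order on each side of each of the 5, and measured by a probe set of their own, were tested in the same fit, with limma's p adjusted over all 22746 probe sets. This set of 30 was chosen by position, after the values of the 5 were known. With INA 0 of the 30 passed, against 1.16% of all probe sets, and 1 had an unadjusted p under 0.05; without moderated variances the count was also 0. With BLM 2 rose and 1 fell, against 16.7% of all probe sets, and with both agents 4 rose and 0 fell, against 22.2%. The median difference of the 30 with both agents was 0.05, beside 0.02 over all probe sets. The neighbours of AT1G35710, AT3G46370 and AT3G04210 next in order on either side did not pass in INA, BLM or BLM+INA against control, with differences from -0.12 to 0.34.

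The genes on either side of AT5G59670 were an exception. Both passed with both agents, with smaller changes than its own and with patterns unlike each other. AT5G59680 rose with both agents by 0.64 ± 0.15 (limma adjusted p = 0.00412) and was higher with both than with BLM by 0.77 ± 0.15 (adjusted p = 0.00312), and with INA alone it stood at 0.53 ± 0.15 (adjusted p = 0.136). AT5G59660 rose with both agents by 0.37 ± 0.12 (adjusted p = 0.0284), a call that was lost in 5 of 12 fits without 1 array, with values from 0.29 to 0.49. Unlike AT5G59670, it stood at -0.04 ± 0.12 with INA and at 0.27 ± 0.12 with BLM (limma adjusted p = 0.133). It was higher with both agents than with INA by 0.41 ± 0.12 (adjusted p = 0.0182), a call lost in 3 of these fits. Against BLM that difference was 0.10 ± 0.12 (adjusted p = 0.743). Whether the probes of these neighbouring genes share signal was not tested, since the probe sequences were not analysed here. Next to AT5G11410, AT5G11400 stood at 0.22 ± 0.11 with BLM (adjusted p = 0.187) and AT5G11420 at 0.25 ± 0.11 (adjusted p = 0.128). The third measured gene after it, AT5G11460, rose with BLM by 1.25 ± 0.12 (adjusted p = 8.73e-07) and with both agents by 1.26 ± 0.12, while AT5G11410 itself stood 2.29 above control with BLM. SEC, the third after AT3G04210, rose with BLM by 0.41 ± 0.10 (adjusted p = 0.0075) and with both agents by 0.33 ± 0.10 (adjusted p = 0.0245), the latter lost in 4 of 12 fits without 1 array (0.26 to 0.40). AT1G35780, the third after AT1G35710, fell with BLM by 0.30 ± 0.10 (adjusted p = 0.0426), a call lost in 8 of these fits. AT5G11460, SEC and AT1G35780 were singled out after their values were seen.

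**Figure D3:**
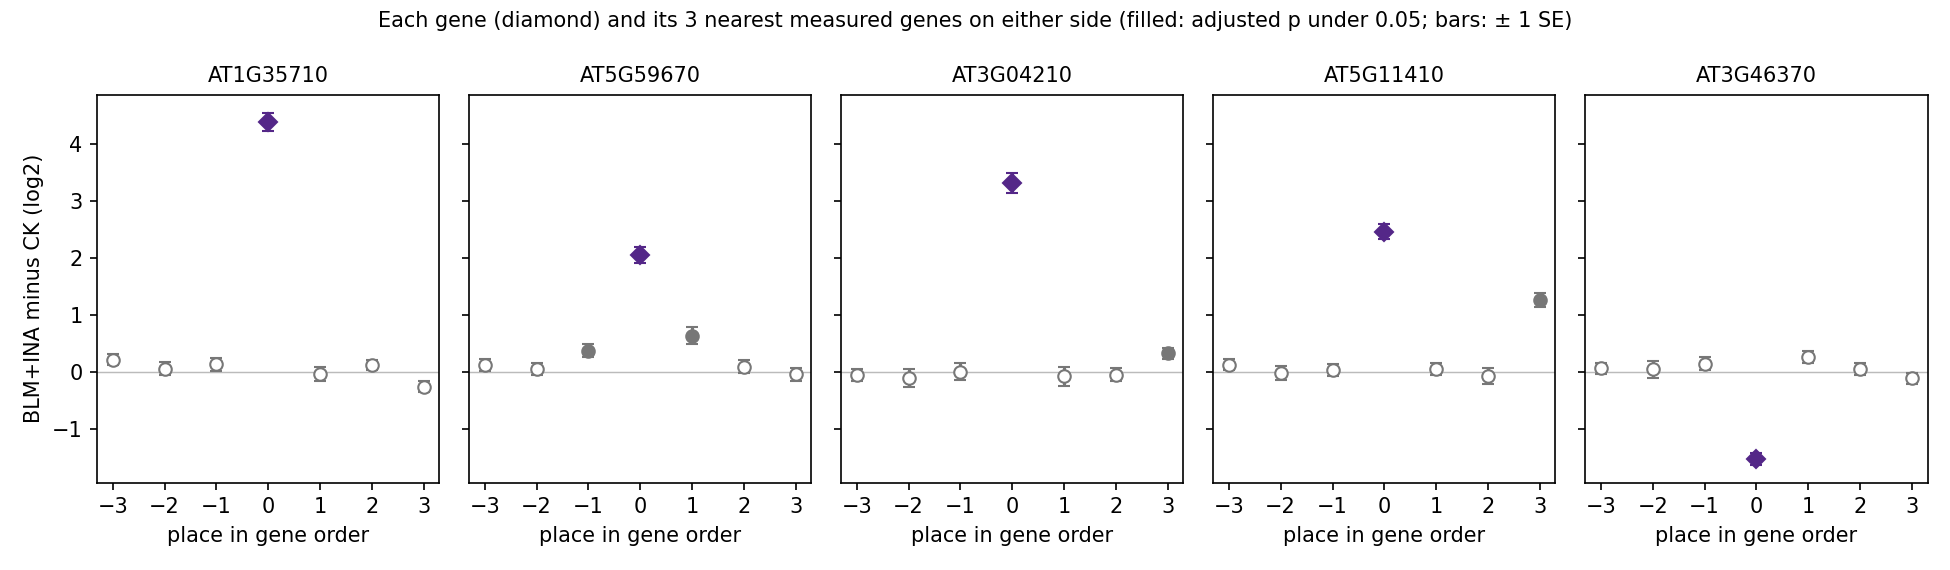
Difference of BLM+INA from control (log2, ± 1 SE, 3 arrays a group) for each of the 5 genes (diamond, place 0) and the 3 nearest measured genes before and after it in gene order; filled circles passed an adjusted p of 0.05. Around AT1G35710 (4.39) and AT3G46370 (-1.53) none of the neighbours passed, and beside AT5G59670 (2.05) both adjacent genes did, at 0.37 and 0.64.

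Lists of immune receptor genes gave a setting for these values. Of a list of 40 genes drawn up as receptors of microbial and damage patterns and their partners, 8 were measured by a probe set of their own. That each of the 8 binds such patterns is not shown by the sources used here. With INA 1 of 8 rose (1.16% of all probe sets passed), with BLM 1 rose (16.7%) and with both agents 3 rose and 1 fell (22.2%), with a median difference of 0.25 in BLM+INA beside 0.02 over all probe sets. AT4G08850 rose with each agent and with both: by 0.79 ± 0.10 with INA (limma adjusted p = 0.000198), by 0.68 ± 0.10 with BLM (adjusted p = 0.000106) and by 1.57 ± 0.10 with both (adjusted p = 3.45e-09). Its group means were -0.70 in CK, 0.09 in INA, -0.02 in BLM and 0.88 with both agents, and it departed from the sum by 0.11 ± 0.14 (adjusted p = 0.927). EFR, the receptor of a bacterial elongation factor, rose with both agents by 0.69 ± 0.13 (adjusted p = 0.000834) and stood at 0.24 ± 0.13 with INA and 0.14 ± 0.13 with BLM. PSY1R rose with both by 0.49 ± 0.12 (adjusted p = 0.0047). AT4G28650 fell with both by 0.46 ± 0.10 (adjusted p = 0.00325).

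Of 31 intracellular immune receptors and their partners, 7 were measured. With INA 1 of 7 rose, with BLM 1 rose, and with both agents 4 rose and 0 fell, against the same shares of all probe sets; the median difference with both was 0.44 beside 0.02. AT3G48080 had group means of -0.41 in CK, 0.32 in INA, -0.31 in BLM and 0.96 with both agents, the same order as AT3G04210. It rose with INA by 0.74 ± 0.14 (limma adjusted p = 0.0109), a call lost without CK replicate 1 or 2 or INA replicate 1 (range 0.65 to 0.86) and without moderated variances, and with both agents by 1.37 ± 0.14 (adjusted p = 1.26e-06). SAG101, which acts with EDS1 behind TIR-type receptors, had another order: it stood at 0.04 ± 0.17 with INA, rose with BLM by 0.80 ± 0.17 (adjusted p = 0.00357) and with both by 1.36 ± 0.17 (adjusted p = 1.32e-05). AT1G17600 rose with both agents by 0.49 ± 0.13 (adjusted p = 0.00949). CSA1, named to complete the 4, rose by 0.44 ± 0.12 (adjusted p = 0.0121), and lost that call without CK replicate 1 or BLM+INA replicate 1, with values of 0.34 to 0.51 over the fits without 1 array. In seedlings with BLM, INA raised 2 of the 8 and 1 of the 7 (5.81% of all probe sets passed), and in seedlings with INA, BLM raised 3 and lowered 1 of the 8 and raised 2 and lowered 1 of the 7 (18.8%). The first of these counts was 1 without BLM replicate 1, BLM replicate 2 or BLM+INA replicate 1, where EFR was lost, and the 4 of 8 in seedlings with INA became 2 without INA replicate 2, where EFR and PSY1R were lost. The 1 intracellular call with INA in BLM seedlings became 2 without BLM replicate 2, BLM+INA replicate 1 or BLM+INA replicate 2, and the fall of AT4G19500 with BLM in INA seedlings (-0.34 ± 0.11, adjusted p = 0.0415) was lost in 5 of 12 fits without 1 array. In the interaction 0 of the 8 and 0 of the 7 passed with limma, with 1 and 2 at an unadjusted p under 0.05, and 0 in either list without moderated variances.

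Seedlings hold root and shoot tissue, and some markers of these fell with BLM, where 16.7% of all probe sets passed. Of 3 root markers measured, EXP7 (-1.21 ± 0.12, limma adjusted p = 9.72e-07) and EXP18 (-0.82 ± 0.11, adjusted p = 3.79e-05), of root hair cells, fell with BLM, and PYK10 stood at -0.06 ± 0.10; with INA 0 of 3 passed by limma, and 0 had an unadjusted p under 0.05. Of 2 green shoot markers, PSAN fell with BLM by 0.52 ± 0.09 and LHCB4.2 stood at -0.06 ± 0.09. With both agents 2 of 3 root markers and 2 of 2 green shoot markers fell, where 22.2% of all probe sets passed. The LHCB4.2 call (-0.28 ± 0.09) was lost in 6 of 12 fits without 1 array. The part of these shifts in the BLM differences of AT5G11410 and AT3G46370 was not tested, nor was that of the actin control in the differences between BLM+INA and BLM.

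Among the 13431 probe sets paired with 1 other gene, the closest in pattern were found by Pearson's r over the 12 arrays. These arrays fall into 4 treatment groups, which the points of each gene share, and r is given as a description. AT5G55450 was the closest to AT1G35710 (r = 0.996), and its difference with both agents, 4.34, was close to that gene's 4.39; AT3G57700 (0.985) and AT1G13470 (0.983) followed with 1.63 and 1.87. AT1G13470 (0.971) and AT5G55450 (0.963) were also closest to AT5G59670, with AT4G14610 (0.958) next. The pattern of AT3G04210 was shared most by AT1G49750 (0.986), AT1G69730 (0.982) and AT1G13750 (0.981). AT1G49750 stood 1.38 above control with INA and 1.82 with both, AT1G69730 1.48 and 1.83.

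AT5G48020 (r = 0.995), AT2G18600 (0.992) and AT4G12490 (0.986) were closest to AT5G11410. Of these, AT2G18600 also had a like size, with 2.21 for BLM and 2.30 for both, beside 2.29 and 2.46. AT3G46370 was followed most closely by CCB3 (0.977), a gene of cytochrome b6f assembly, AT4G33740 (0.956) and THI2.2 (0.951), a thionin gene. Their differences with both agents were smaller than its -1.53, at -0.53, -0.31 and -1.12.

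**Figure D4:**
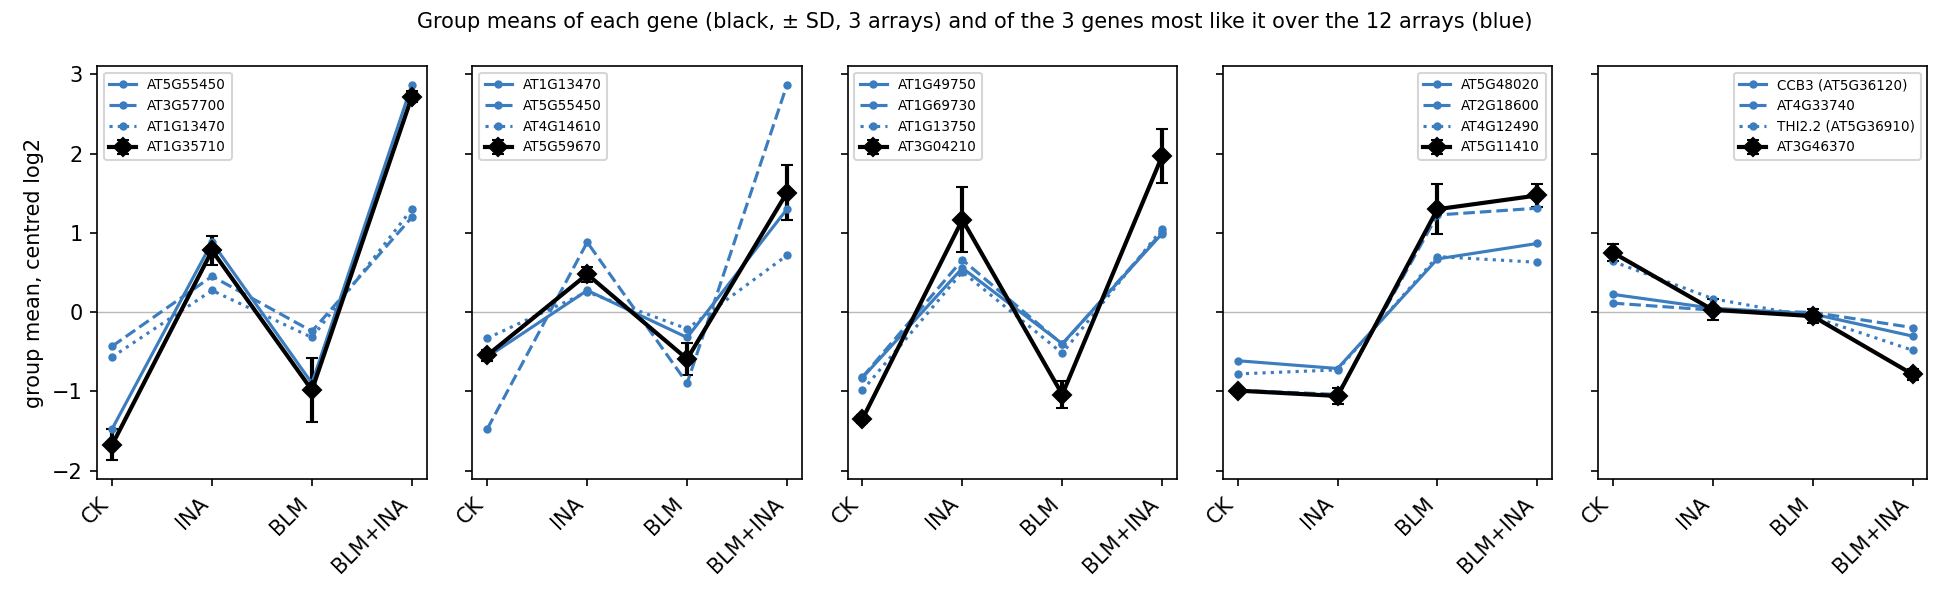
Group means of centred log2 signal in CK, INA, BLM and BLM+INA for each of the 5 genes (black diamonds, ± SD, 3 arrays) and the 3 genes with the highest Pearson correlation to it over the 12 arrays (blue); the lines only join the groups of a gene. AT5G55450 runs with AT1G35710 at nearly the same size, from -1.47 to 2.87, while the 3 genes like AT3G04210 have its shape at a smaller range.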

How the data were processed

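Total RNA was taken from 12 seedling samples, and biotin-labelled material from each was hybridised to 1 array. The deposited values are log2 signals made with RMA, per the submitters' processing notes, which give no version; the base is RMA's own. In the deposited table each probe set was centred on its median over the 12 arrays (largest absolute median 5e-07), a step the sources used here do not describe. The table holds 22810 probe sets; 64 controls were left out and 22746 tested.

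The gene table paired 13513 probe sets with 1 gene and 503 with several, and 13436 of the former matched RefSeq TAIR10.1, which was used for names and gene order only. The signal's depth over background is unknown after centring, and the 3 arrays a group limit the precision. Groups and replicate numbers came from the sample titles, and the replicates are biological per the labels. Group differences came from limma 3.58.1 in R 4.3.3 (lmFit and eBayes on all 12 arrays with 1 mean a group, which left 8 residual degrees of freedom beside a prior of 8.82), for 6 comparisons each adjusted by Benjamini-Hochberg over all probe sets. The comparisons share groups. On simulated data with 22746 probe sets, the BLM comparison recovered 95.8% of changes of 2-fold and 60.7% of those of 1.5-fold. The interaction recovered 75.0% and 4.83%, so that most interactions of 1.5-fold would be missed in such data. The simulation used independent normal noise and changed only a small share of probe sets. With BLM 16.7% of the real probe sets passed, so these rates need not carry over. Array scaling, array weights, moderation, the replicate number as a block, the groups in the fit, the probe sets tested, a filter on low signals, the threshold, the linear scale and leaving out each array were tried as alternatives. Tables were joined in Python 3.11.15, and plots made in matplotlib 3.10.9.

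The 5 genes and all lists were chosen with earlier results of these data known. Named were the 5 genes, up to 3 called genes in each direction per list and comparison with the largest difference, the 3 genes most like each of the 5, and their nearest measured neighbours. The wider neighbourhood of 3 genes a side was chosen later. Sequence relatives and sequences were not analysed here.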

Additional observations from a re-analysis of the deposited data

How the results depend on the processing

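For the 5 genes, none of 360 differences in fits without 1 array moved by more than the spread within groups. This check could hardly fail, because leaving out 1 of 3 arrays shifts a group mean by only part of that group's spread. An array of a group outside the comparison does not change a difference at all, so nothing is read from this count. Robust moderation, no moderation, the replicate block and a fit of the compared groups only leave each difference unchanged by construction. Of 210 values under the other alternatives, these included, 184 moved by less than the spread within groups. The others were 22 under quantile normalization, which by its construction gives every array the same extremes, and 4 departures from the sum on the linear scale, which is another unit: 4.66 for AT1G35710, 1.52 for AT5G59670, 0.28 for AT3G46370 and 1.59 for AT3G04210. The sign changed in 5 values under quantile normalization, in 1 on the linear scale, in 1 with each array centred on its median and in 6 without 1 array; the last 8 were all AT3G46370's departure from the sum or AT5G59670 with BLM, both near 0. Under quantile normalization BLM+INA minus control came to 3.14 for AT1G35710, 1.52 for AT5G59670, -1.71 for AT3G46370, 1.88 for AT5G11410 and 2.46 for AT3G04210. BLM+INA minus BLM came to 2.67 for AT1G35710, 1.56 for AT5G59670, -0.64 for AT5G11410 and 2.23 for AT3G04210. BLM+INA minus INA came to 0.85 for AT1G35710, 0.46 for AT5G59670, 2.24 for AT5G11410 and -0.10 for AT3G04210. AT3G46370 stood at -0.85 with INA and -0.95 with BLM, and AT5G11410 at -0.36 and 2.52. The departure from the sum was 0.38 for AT1G35710, 0.50 for AT5G59670, 0.093 for AT3G46370, -0.28 for AT5G11410 and -0.32 for AT3G04210.

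Counts of probe sets called, in the order INA over control, BLM over control, both agents over control, both over BLM, both over INA, and the interaction, were 264, 3790, 5047, 1321, 4274 and 87. At an adjusted p of 0.01 they were 158, 2254, 3352, 694, 2569 and 42, and with only probe sets of 1 gene, where fewer are tested, 110, 1922, 2564, 647, 2105 and 38. Without moderated variances the counts were 117 for INA, 831 for BLM+INA against BLM and 2 for the interaction, and quantile normalization gave 45 for the interaction; the cause was not tested. Without 1 array the INA count ranged from 168 (INA replicate 1) to 274 and was 169 without CK replicate 1, and that of BLM+INA against BLM from 875 (BLM replicate 1) to 1343. List counts changed by over 1.5 times in 19 of 216 fits without 1 array and in 13 of 177 others.

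The numbers were not taken as pairs, because the labels do not say that arrays of a number share a batch. Of 18 same-numbered pairs 10 had deviations correlated over 0.1, and 7 of 12 arrays correlated best with their own number. The median was 0.127 for same numbers and -0.105 for different ones, and the replicate 3 arrays did deviate together, with 6 of 6 pairs between 0.233 and 0.405, a hint from the data, not the design. With the replicate number as a block every count of probe sets called rose. In the order of comparisons above they were 356, 4530, 5762, 1761, 5019 and 170, and only the last moved by over 1.5 times. The SEs given here do not allow for a shared effect of the replicate number. Weak signals in control arrays, and in some treated ones, limit the differences of AT1G35710, AT5G59670, AT5G11410 and AT3G04210. Their arrays below 4 may sit near background, which the centred values do not show.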
